A study of Homo sapiens with 14 samples.

Results

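Retinoic acid carries positional and differentiation signals during endoderm patterning, and 9 genes that bind, sense or remove it were followed here. They are the clearance enzymes CYP26A1, CYP26B1 and CYP26C1, the retinaldehyde reductase DHRS3, the nuclear receptors RARA, RARB and RARG, and the cellular binding proteins CRABP1 and CRABP2. They were chosen by gene symbol, and all 9 were among the 59050 gene symbols of the count table. The cells were HUES8, an established human embryonic stem cell line labelled wild type, guided in culture towards pancreas. The stages compared were definitive endoderm (DE), early pancreatic progenitor (PP1) and late pancreatic progenitor (PP2). Each stage had RNA sequencing (RNA), which counts transcripts, and ribosome profiling (Ribo), which counts the fragments that ribosomes protect, in 2 DE, 2 PP1 and 3 PP2 libraries per assay, 14 in all. Which growth factors or retinoids the medium held at each stage is not given in the sources used here, nor is whether replicates were separate differentiations, so the p-values refer to scatter among libraries that may be only technical.

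As background, cells make retinoic acid from retinol in a pair of oxidation steps, through retinaldehyde. Retinoic acid enters the nucleus and binds RAR proteins, which sit on DNA as dimers with RXR partners and exchange corepressors for coactivators when the ligand is bound. CYP26 enzymes hydroxylate retinoic acid for removal, DHRS3 returns retinaldehyde to retinol, and CYP26A1, DHRS3 and RARB are textbook targets that retinoic acid itself switches on in many cells. In the embryo, retinoic acid signalling is required for the dorsal pancreas in several vertebrates.

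The classical binding site of an RAR-RXR dimer is a direct repeat of a 6-base half-site with a 5-base spacer, called DR5. Exact pairs with that spacer, formed from the half-site AGGTCA or its variants (AGTTCA was the first, GGGTCA another, and GGTTCA the last), were searched on both strands of RefSeq promoter windows (GRCh38.p14, 250 bases before to 50 after a start site). A DR5 was present in 31 of 35116 windows, or 0.0883% of them. All 9 members had at least 1 window, 17 in all, and a DR5 lay in 1 of the 2 windows of CYP26A1 and 1 of the 4 windows of RARB. Neither a 1-base-spacer repeat (DR1, in 0.131% of all windows) nor a 2-base-spacer repeat (DR2, in 0.0399%) was found in the members' windows. The 120 bases before those start sites are printed on the plus strand, 5′ to 3′, because they are the 2 members that share the repeat and their levels then went opposite ways. Capitals mark the half-sites. The CYP26A1 stretch is chr10:93073773-93073892, and its repeat reads on the minus strand. The RARB stretch is chr3:25428143-25428262, and its repeat reads on the plus strand.
CYP26A1: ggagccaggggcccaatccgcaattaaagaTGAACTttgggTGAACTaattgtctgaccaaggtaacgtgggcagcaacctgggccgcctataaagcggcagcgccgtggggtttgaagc
RARB: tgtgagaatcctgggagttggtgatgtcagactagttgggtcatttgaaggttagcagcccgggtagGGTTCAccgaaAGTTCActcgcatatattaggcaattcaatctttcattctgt
The CYP26A1 repeat spans bases -90 to -74 from its start site, and the RARB repeat bases -53 to -37. A match describes letters only and says nothing of whether a receptor was bound.

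In the RefSeq annotation (GRCh38.p14) CYP26A1 spans chr10:93073475-93077885 with CYP26C1 beside it at chr10:93060798-93069540, and CYP26B1 spans chr2:72129238-72147862. DHRS3 lies at chr1:12567910-12618210, CRABP2 at chr1:156699606-156705784 and CRABP1 at chr15:78340353-78348225. The receptors lie at chr17:40309180-40357643 (RARA), chr3:24829321-25597932 (RARB) and chr12:53210569-53232209 (RARG). Both printed stretches lie inside the annotated span of their gene, before one of its later start sites, and the counts do not say which start site a transcript used.

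Total counts ran from 15107847 to 21009065 per RNA library and from 4710335 to 24186949 per Ribo library. The mitochondrial ribosomal RNA MT-RNR2 took 44.6% to 60.8% of the counts in 5 Ribo libraries, but 1.65% in Ribo PP2 replicate 1 and 11% in Ribo PP2 replicate 3. RNA PP2 replicate 3 stood apart from the other 2 RNA PP2 libraries for RARA. Summed levels of definitive endoderm markers were 5810 to 6130 CPM (counts scaled to the effective library size) in RNA at DE, 211 to 217 at PP1 and 115 to 162 at PP2, and no marker was at 0 in a whole group. Pancreatic progenitor markers summed to 14.8 to 15.6, 206 to 228 and 244 to 916 CPM, with PDX1 and NKX6-1 at 0 at DE. Markers of other lineages also moved with stage: hepatic markers summed to 16.1 to 18.4, 13000 to 14000 and 4730 to 7150 CPM (AFP, TTR, FGB and SERPINA1 at 0 at DE), and intestinal markers to 120 to 123, 422 to 478 and 137 to 171 CPM (MUC2 at 0 at DE). Mesenchyme markers summed to 134 to 156, 420 to 469 and 274 to 462 CPM (COL3A1 and ACTA2 at 0 at DE), neural markers to 471 to 493, 44.9 to 51.3 and 39.0 to 41.0 CPM (SOX1 at 0 at PP1, NEUROG2 at PP2), and pluripotency markers to 923 to 929, 96.5 to 97.2 and 63.9 to 85.5 CPM. Several lists did not move as one. In RNA from DE to PP1, 2 pluripotency markers rose and 4 fell, and 1 neural marker rose and 2 fell. For intestinal and for mesenchyme markers 3 rose and 1 fell, and for pancreatic progenitor markers 4 rose and 1 fell. All 7 hepatic markers rose, and of definitive endoderm markers 5 fell and 0 rose. The part of these markers in the results on the 9 genes was not tested. In bulk samples fewer cells of a type and less RNA per cell cannot be told apart.

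Most members changed between stages. CYP26A1, CRABP2 and CRABP1 fell and CYP26B1 and DHRS3 rose from DE to PP1 in both assays. The third gene to rise at that step was RARB in RNA and RARA in Ribo, and by PP2 RARG had fallen in both. A gene passed where edgeR's quasi-likelihood test gave a Benjamini-Hochberg adjusted p under 0.05 over all genes tested. In RNA, 6 of 9 members passed between PP1 and DE (3 rose, 3 fell), against 24.3% of the 24603 genes tested (12.3% higher, 12% lower). Between PP2 and PP1, 7 of 9 passed in RNA (2 rose, 5 fell), against 18.4% of genes (7.79% higher, 10.6% lower), and between PP2 and DE 8 of 9 passed (4 rose, 4 fell), against 33.5% (16.4% higher, 17.1% lower). In Ribo, where CYP26C1 had too few counts to test, 6 of 8 passed between PP1 and DE (3 rose, 3 fell), against 7.54% of the 15067 genes tested (4.53% higher, 3.01% lower). The Ribo counts were 2 of 8 between PP2 and PP1 (both fell), against 5.01% (2.16% higher, 2.85% lower), and 8 of 8 between PP2 and DE (4 rose, 4 fell), against 27.6% (13.1% higher, 14.5% lower). In each comparison the members' share was above that of all genes. The members were chosen with earlier results of these data known, so these shares describe them and are no independent evidence. Some counts moved with single libraries. In Ribo between PP2 and PP1, 4 members passed without Ribo PP2 replicate 2. DE and PP1 had 2 libraries each per assay, so leaving out 1 of them left a group of 1 library, and fewer members passed. Such fits cannot tell a call that hinged on 1 library from a loss of power. The paragraphs on single genes therefore give only their effect sizes. Median log2 fold changes of the members in RNA were 0.84, -1.32 and -0.48 for PP1 against DE, PP2 against PP1 and PP2 against DE, where all genes had 0.0057, 0.0049 and 0.049. The comparisons share libraries, so they are not independent of each other.

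**Figure D1:**
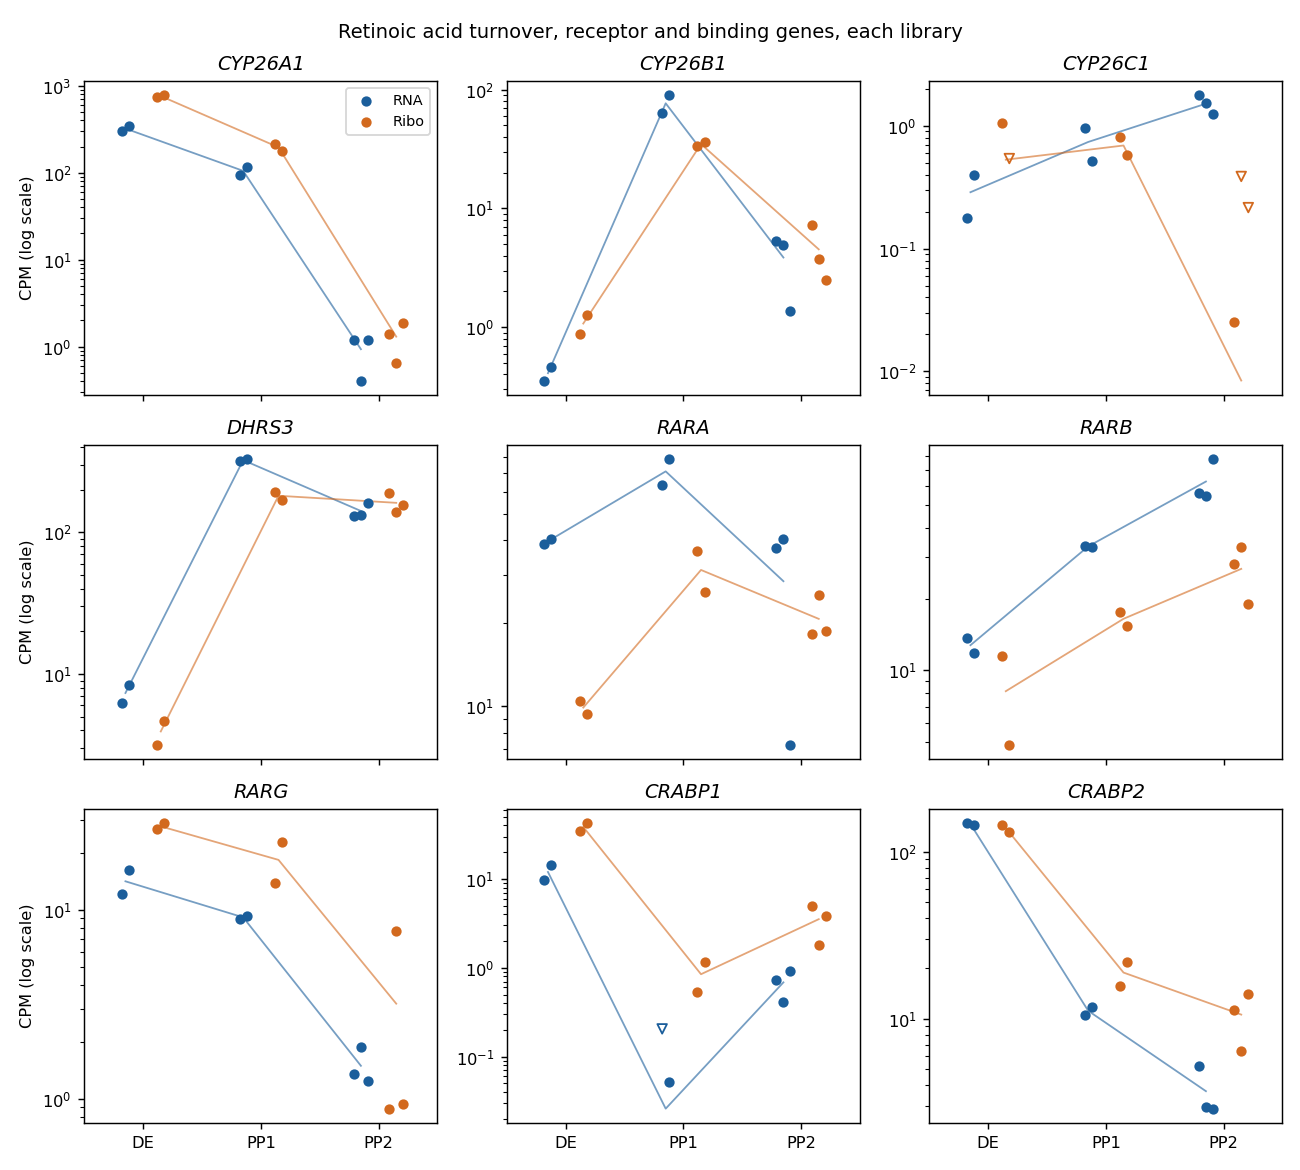
CPM of the 9 genes (log axis) by stage, with RNA and Ribo libraries as separate colours; each point is 1 library, lines join stage means, and open triangles mark libraries with no count, drawn at the level of 3 counts. CYP26A1 lies between 302 and 342 CPM in RNA at DE and at 1.2 or below at PP2, while RARB climbs from 11.9 to 13.7 CPM at DE to 54.2 to 77.6 at PP2.

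CYP26A1, a cytochrome P450 that oxidises retinoic acid, was the most abundant clearance enzyme at DE and had nearly vanished by PP2. Its RNA was 302 and 342 CPM in the 2 DE libraries, 95.2 and 115 in the 2 PP1 libraries, and 1.2, 0.407 and 1.2 in the 3 PP2 libraries. Ribosome footprints were 745 and 777 CPM at DE, 216 and 176 at PP1, and 1.39, 0.645 and 1.87 at PP2. Stages did not overlap in either assay. The log2 fold change of RNA from DE to PP1 was -1.62 ± 0.34 (SE, adjusted p = 0.0105) and from PP1 to PP2 -6.80 ± 0.38 (adjusted p = 0.000139), so that PP2 stood 341-fold below DE. Footprints fell by 1.96 ± 0.49 (adjusted p = 0.0352) on the log2 scale, and the next change was -7.17 ± 0.53 (adjusted p = 0.000236). The first step rested on few libraries, and a fit with 1 library in a group cannot decide whether its call holds. Its RNA change was -1.704, -1.535, -1.485 and -1.761 without RNA DE replicate 1 or 2 or RNA PP1 replicate 1 or 2. The Ribo change without the matching Ribo libraries was -1.961, -1.896, -2.079 and -1.791. The fall from PP1 to PP2 passed under every setting tried in both assays.

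CYP26B1, another retinoic acid hydroxylase, peaked at PP1. RNA was 0.355 and 0.464 CPM at DE, 63.8 and 89.7 at PP1, and 5.31, 4.89 and 1.38 at PP2. Footprints followed with 0.883 and 1.26 CPM, then 33.2 and 36.4, then 7.31, 3.74 and 2.52. Both assays put PP1 above every DE and PP2 library, and PP2 above every DE library. RNA rose 185-fold from DE to PP1 (log2 7.53 ± 0.71, adjusted p = 0.000182) and fell by 4.32 ± 0.48 on the log2 scale to PP2 (adjusted p = 0.00104). In Ribo the rise was 5.01 ± 0.65 (adjusted p = 0.000945) and the following change -2.92 ± 0.47 (adjusted p = 0.00861). The remaining excess of PP2 over DE was 3.21 ± 0.67 in RNA (adjusted p = 0.0073) and 2.09 ± 0.59 in Ribo (adjusted p = 0.0251). The RNA excess was 3.029 and 3.403 without RNA DE replicate 1 or 2, and the Ribo excess 1.938 and 2.453 without Ribo DE replicate 1 or 2. The Ribo excess missed the threshold without Ribo PP2 replicate 1 (adjusted p = 0.0557), by limma voom (0.129) and with only those stages in the fit (0.101). The Ribo change from PP1 to PP2 was -2.916 and -2.775 without Ribo PP1 replicate 1 or 2.

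CYP26C1, the third hydroxylase and the neighbour of CYP26A1 on chromosome 10, stayed near the detection limit. Its RNA was 0.178 and 0.398 CPM at DE, 0.958 and 0.519 at PP1, and 1.77, 1.53 and 1.24 at PP2, with no overlap between stages. Only PP2 against DE passed, at a log2 fold change of 2.38 ± 0.54 (adjusted p = 0.0108), and that change was 1.90 without RNA DE replicate 1. Footprint counts were 6 and 0 at DE, 3 and 2 at PP1, and 1, 0 and 0 at PP2, and a library with 0 counts allows up to 3.

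Per length of counted sequence (RPKM, which is CPM divided by length in kilobases), the 3 hydroxylases together held 102.1 and 115.5 RPKM of RNA at DE, 45.05 and 56.75 at PP1, and 1.87, 1.46 and 0.962 at PP2. CYP26A1 made up 99.9% and 99.8% of that sum at DE and 71.3% and 68.3% at PP1. At PP2 it made up 21.6%, 9.41% and 41.9%, and CYP26B1 held 56.7%, 66.7% and 28.6%. By footprints CYP26A1 kept a larger part at PP1, with 91.4% and 88.9%. Footprint RPKM used the same gene length as RNA, so footprint shares hold only if footprints cover the genes' lengths alike. The combined level was lower at each later stage in every library of both assays, although CYP26B1 rose at PP1.

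**Figure D2:**
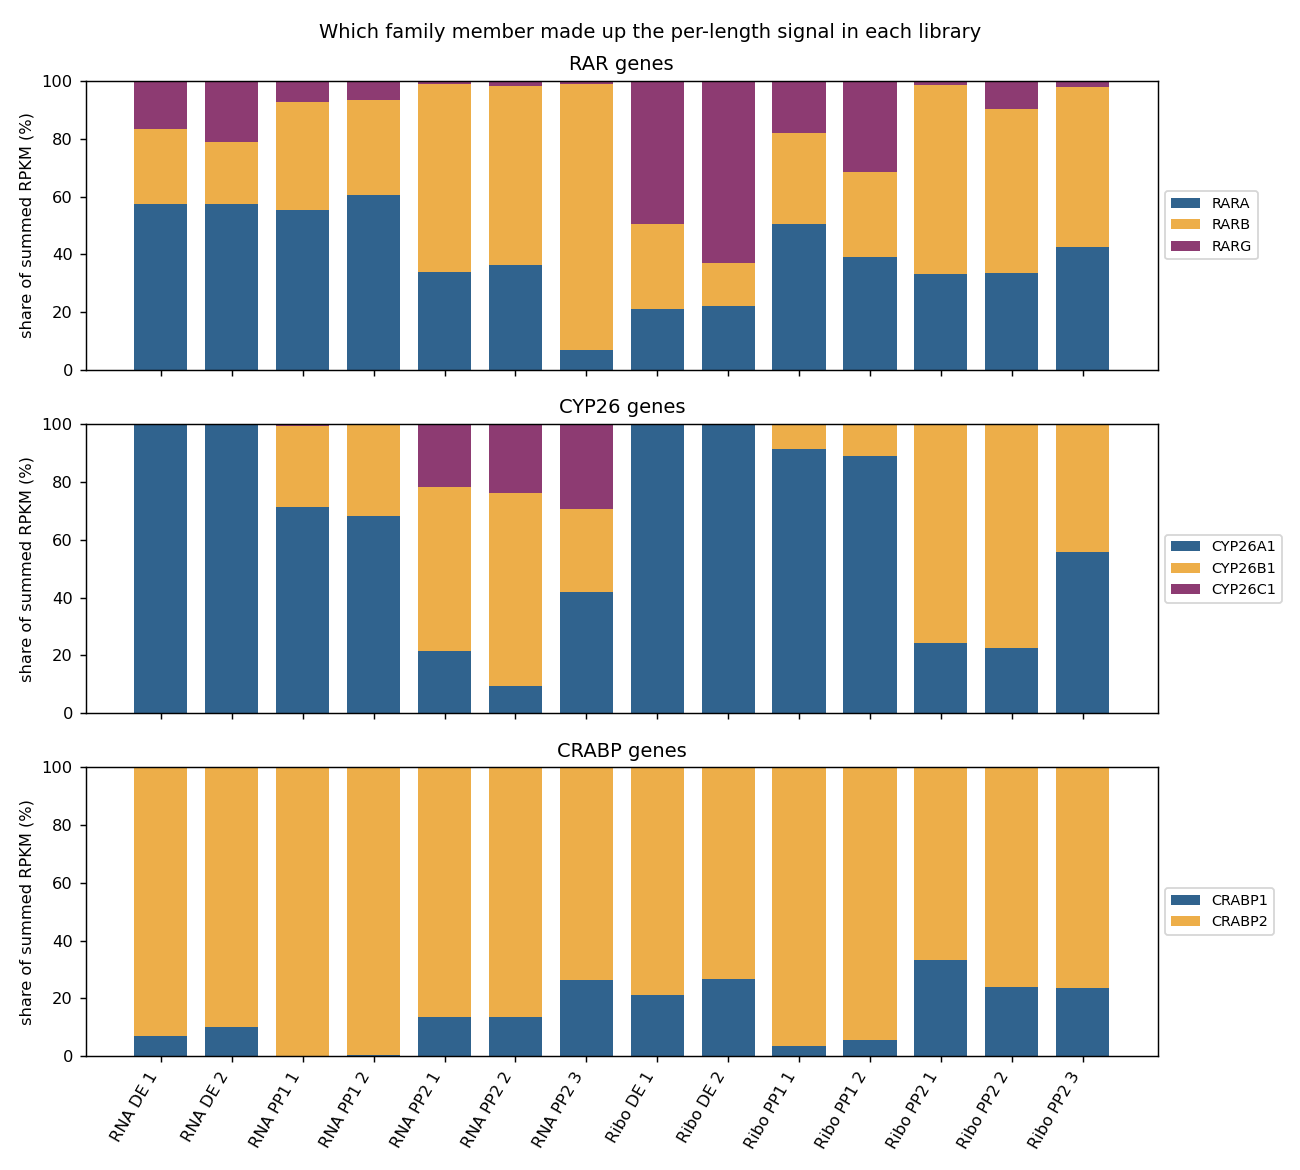
Share of each family member (percent of the family's summed RPKM) in every library, for the RAR, CYP26 and CRABP families, with RNA and Ribo shown separately. RARB takes 62.2% to 92.2% of RAR RNA in the 3 PP2 libraries, and CYP26A1 takes almost all CYP26 RNA at DE.

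DHRS3, which reduces retinaldehyde to retinol and so limits the substrate for retinoic acid synthesis, rose at PP1 and stayed high. RNA was 6.28 and 8.42 CPM at DE, 320 and 328 at PP1, and 130, 133 and 162 at PP2. Footprints were 3.18 and 4.69, then 194 and 169, then 189, 139 and 157 CPM. RNA stages were separate, whereas the PP1 and PP2 footprints overlapped. From DE to PP1 RNA rose 44.1-fold (log2 5.46 ± 0.26, adjusted p = 1.42e-05) and footprints 46.0-fold (5.52 ± 0.47, adjusted p = 0.00016). RNA fell by 1.19 ± 0.19 on the log2 scale from PP1 to PP2 (adjusted p = 0.00497). That change was -1.215 and -1.169 without RNA PP1 replicate 1 or 2. The footprint difference there was -0.17 ± 0.35 and did not pass (adjusted p = 0.823). PP2 remained above DE by 4.27 ± 0.24 in RNA (adjusted p = 1.04e-05) and 5.36 ± 0.46 in Ribo (adjusted p = 3.71e-05).

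RARB, the receptor gene with the DR5 printed above, rose at both steps in RNA. Its RNA was 13.7 and 11.9 CPM at DE, 33.6 and 33.1 at PP1, and 55.9, 54.2 and 77.6 at PP2. Footprints were 11.5 and 4.87, then 17.7 and 15.3, then 28.1, 33.3 and 19.0 CPM. Neither assay showed overlap between stages. The RNA changes were 1.38 ± 0.23 (adjusted p = 0.00329) and 0.91 ± 0.21 (adjusted p = 0.0205), giving 4.89-fold from DE to PP2 (2.29 ± 0.22, adjusted p = 0.000152). The first was 1.274 without RNA DE replicate 2, and the second 0.916 and 0.9027 without RNA PP1 replicate 1 or 2. In Ribo only PP2 against DE passed (1.71 ± 0.45, adjusted p = 0.0192), and that change was 1.29 without Ribo DE replicate 2. RARB overlaps TOP2B by 28 bases, and TOP2B had 4838 to 10163 RNA counts per library. The single steps in Ribo were 1.01 ± 0.48 (adjusted p = 0.249) and 0.70 ± 0.43 (adjusted p = 0.374).

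RARG, the receptor best known from skin and cartilage, went the other way. RNA was 12.1 and 16.2 CPM at DE, 8.96 and 9.29 at PP1, and 1.35, 1.88 and 1.24 at PP2. Footprints were 26.7 and 28.7, then 13.9 and 22.8, then 0.886, 7.74 and 0.935 CPM. The stages were separate, with Ribo PP2 replicate 2 several-fold above the other 2. RNA fell by 2.61 ± 0.26 on the log2 scale from PP1 to PP2 (adjusted p = 0.000671) and by 3.24 ± 0.26 from DE to PP2 (adjusted p = 5.22e-05). The change from DE to PP1 was -0.63 ± 0.27 and did not pass (adjusted p = 0.127), but it passed without RNA PP2 replicate 3 (adjusted p = 0.0107). Footprints differed by -2.64 ± 0.80 from PP1 to PP2 (adjusted p = 0.0813), and by -4.30 without Ribo PP2 replicate 2 (adjusted p = 5.4e-05). From DE to PP2 they fell by 3.23 ± 0.79 (adjusted p = 0.014), a call lost without Ribo PP2 replicate 3 (0.0523). That change was -3.213 and -3.103 without Ribo DE replicate 1 or 2.

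RARA, the most widely expressed receptor of the family, was highest at PP1. RNA was 38.8 and 40.6 CPM at DE, 63.6 and 78.7 at PP1, and 37.5, 40.5 and 7.27 at PP2, where replicate 3 was far below the other 2. Footprints were 10.4 and 9.38, then 36.4 and 26.0, then 18.2, 25.3 and 18.8 CPM, with no low value in PP2 replicate 3. PP1 lay above every DE and PP2 library in both assays, while DE and PP2 overlapped in RNA. The edgeR fit with all libraries, the low-count filter and no replicate block passed no RNA change. DE to PP1 gave 0.84 ± 0.63 (adjusted p = 0.39) and PP1 to PP2 -1.32 ± 0.57 (adjusted p = 0.142). Without RNA PP2 replicate 3 both changes passed, at 0.85 (adjusted p = 3.16e-06) and -0.86 (adjusted p = 3.38e-06). Both also passed with all libraries when the filter was dropped (adjusted p = 0.0147 and 1.9e-06) and by limma voom with quality weights (0.00616 and 0.00245), and the first passed with only its stages in the fit (6.44e-06). Footprints rose from DE to PP1 by 1.66 ± 0.39 (adjusted p = 0.0265) and were higher at PP2 than at DE by 1.06 ± 0.36 (adjusted p = 0.0468). The first change was 1.762, 1.614, 1.426 and 1.908 without Ribo DE replicate 1 or 2 or Ribo PP1 replicate 1 or 2. The second call was lost with DESeq2 size factors (adjusted p = 0.053), protein-coding genes (0.0568) and the DESeq2 Wald test (0.0611). It was also lost with only those stages in the fit (0.0805), with a replicate block (0.15) and without Ribo PP2 replicate 3 (0.0912). The antisense gene RARA-AS1 overlaps RARA and had 41 to 67 RNA counts per library, and the strand setting of the counting is not given in the sources used here.

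Per length of counted sequence, the share of each receptor in the RAR sum differed between stages. RARA held 57.4% and 57.3% of the summed RAR RNA at DE and 55.3% and 60.7% at PP1, then 34.0%, 36.3% and 6.74% at PP2. RARB held 26.0% and 21.5%, then 37.5% and 32.7%, then 64.9%, 62.2% and 92.2%. RARG held 16.6% and 21.2% at DE, 7.21% and 6.63% at PP1, and 1.13%, 1.56% and 1.07% at PP2. By footprints, with the limit on length given above, RARG led at DE with 49.5% and 62.9%. RARB led at PP2 with 65.4%, 56.8% and 55.4%. The summed RAR RNA was 14.25 and 14.9 RPKM at DE, 24.3 and 27.3 at PP1, and 23.3, 23.6 and 22.8 at PP2.

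CRABP2, the binding protein that hands retinoic acid to RARs in the nucleus, was abundant at DE and fell at both steps in RNA. RNA was 147.5 and 144.9 CPM at DE, 10.5 and 11.8 at PP1, and 5.21, 2.95 and 2.90 at PP2. Footprints were 145.3 and 131.5, then 15.8 and 22, then 11.3, 6.45 and 14 CPM. Stages did not overlap in either assay. RNA changes were -3.71 ± 0.31 (adjusted p = 0.000101) and -1.60 ± 0.27 (adjusted p = 0.00549), and PP2 stood 39.7-fold below DE. The second change was -1.511 without RNA PP1 replicate 2. Footprints fell by 2.87 ± 0.44 to PP1 (adjusted p = 0.00251), and that change was -2.622 without Ribo PP1 replicate 1. The next Ribo step was -0.82 ± 0.38 (adjusted p = 0.223), and it was -1.54 when both Ribo PP2 libraries low in MT-RNR2 were left out.

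CRABP1, the cytoplasmic paralogue linked to retinoic acid sequestration, was close to absent at PP1. RNA was 9.71 and 14.3 CPM at DE, 0 and 0.0519 at PP1 (0 and 1 counts), and 0.729, 0.407 and 0.920 at PP2. Footprints were 34.8 and 42.2, then 0.536 and 1.16, then 4.96, 1.81 and 3.81 CPM. In both assays PP2 lay between DE and PP1 without overlap. With 1 count at PP1, the RNA rate at DE was 402 times higher, with an exact 95% Poisson interval of 71.7 to 15900 that covers counting error only, and the rate at PP2 was 23.5 times higher (3.99 to 950). Both RNA changes passed (adjusted p = 0.000101 and 0.0118), but the size of the rise to PP2 is loose. On the log2 scale it was 3.566 without RNA PP1 replicate 1, and without replicate 2 no PP1 count was left. Footprints fell by 5.50 ± 0.67 from DE to PP1 (adjusted p = 0.000703). The Ribo change from PP1 to PP2 was 2.10 ± 0.65 (adjusted p = 0.0854), and its adjusted p was 0.00911 without Ribo PP2 replicate 2.

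Together the binding proteins went from 146.5 and 148.8 RPKM of RNA at DE to 9.74 and 10.9 at PP1 and 5.57, 3.15 and 3.64 at PP2. In RNA at DE, CRABP2 (135 ± 1.72 RPKM, SD, n = 2) and CYP26A1 (109 ± 9.42) were the 2 highest of the 9 genes per length, and their ranges did not overlap. DHRS3 (92.1 ± 1.63 RPKM, n = 2) led at PP1 in RNA, ahead of CYP26A1 (35.4 ± 4.7). CYP26B1 (15.3 ± 3.64) and RARA (15 ± 2.24) came next there and overlapped. DHRS3 (40.3 ± 4.94 RPKM, SD, n = 3) also led at PP2 in RNA, with RARB second (16.9 ± 3.53), whereas CYP26A1 (0.315 ± 0.154), CYP26C1 (0.346 ± 0.0605) and RARG (0.291 ± 0.0669) could not be ordered beyond their spread. Footprints gave another order at the earlier stages: CYP26A1 stood above CRABP2 at DE (256.7 ± 7.66 and 127.9 ± 9.03 RPKM, SD, n = 2) and above DHRS3 at PP1 (66.1 ± 9.44 and 51.6 ± 4.94). This order rests on the gene length also used for RNA. If footprints covered only part of that length, the order between genes could differ, which was not tested.

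**Figure D3:**
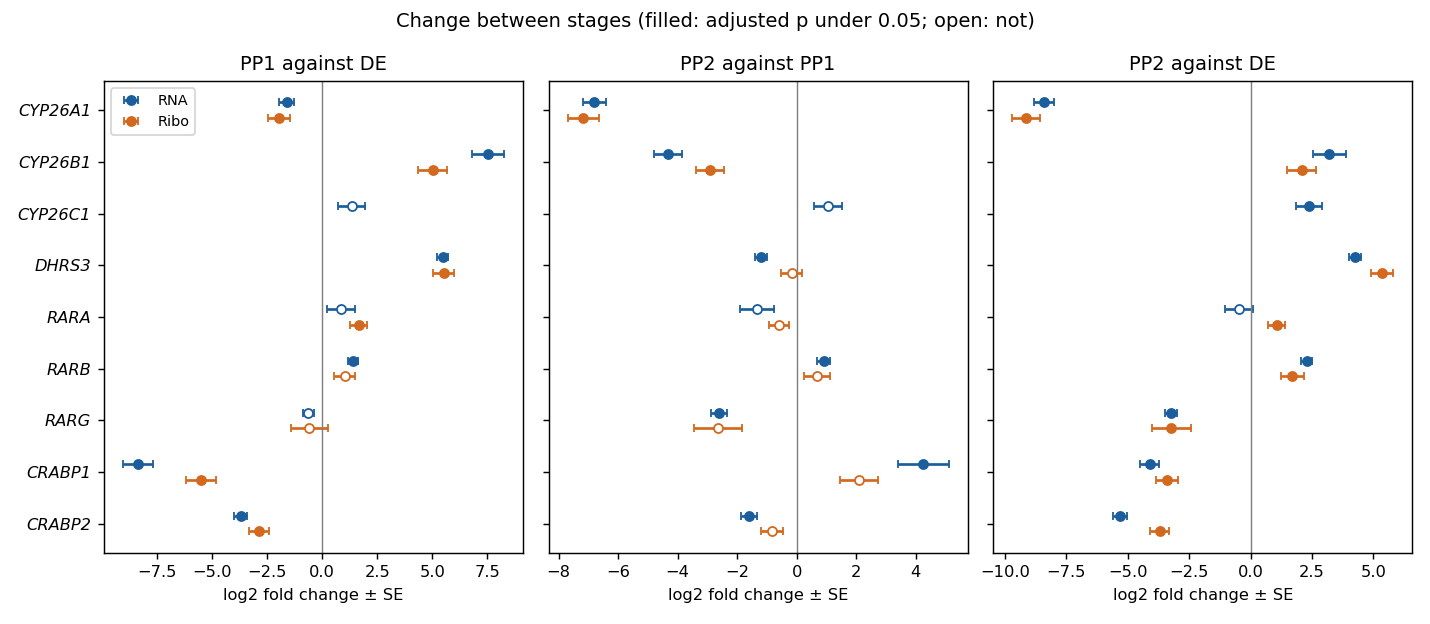
Log2 fold change ± SE of each gene in RNA and Ribo for the 3 stage comparisons; filled points passed at an adjusted p under 0.05 and open points did not. The 3 comparisons share libraries. DHRS3 lies above 0 and CRABP2 below 0 in both assays from DE to PP1.

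Translation efficiency, as the change in Ribo beyond that in RNA, came from a single edgeR fit of all 14 libraries and passed for 0 of 8 members in each comparison. Among the 14152 genes tested, 0.269% passed between PP1 and DE (0.0707% higher, 0.198% lower), 0.0777% between PP2 and PP1 (all lower) and 5.69% between PP2 and DE (2.01% higher, 3.68% lower). At an unadjusted p under 0.05 there were 2, 1 and 2 members in the same order. The share of all genes at that cutoff is not given here, so these counts cannot be set against a background. DESeq2 passed 0, 0 and 1, and limma voom 0, 1 and 1. The 2 members between PP1 and DE were CYP26B1 (-2.45 ± 0.997) and CRABP1, for which no value is given because its RNA had 1 count at PP1, and DHRS3 was the 1 between PP2 and PP1 (0.85 ± 0.36, adjusted p = 0.423). Between PP2 and DE they were CRABP2 (1.49 ± 0.46, adjusted p = 0.068) and DHRS3 (0.97 ± 0.40, adjusted p = 0.138).

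Within a stage, the ratio of Ribo to RNA CPM placed the members differently among those 14152 genes. CYP26A1 was at percentile 92.5 at DE, 93.4 at PP1 and 88.3 at PP2. RARG was at percentiles 90.3, 94.1 and 95.1, CRABP1 at 95, 98.7 and 99.0, and CRABP2 at 75.3, 92.3 and 97.5. RARA was lower, at 23.4, 48.9 and 67.2, and RARB stood at 62.4, 55.3 and 40.8. DHRS3 was at percentiles 55.7, 61.1 and 84.1, and CYP26B1 at 92.2, 50.5 and 84.6. These positions are a description, since Ribo libraries differed in their MT-RNR2 share and the low counts of CRABP1 and CYP26B1 leave their ratios loose.

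The enzymes that supply retinoic acid were described from a list of 20 uptake, storage and synthesis genes. Of the 17 tested in RNA, 4 rose and 1 fell from DE to PP1, 1 rose and 5 fell from PP1 to PP2, and 6 rose and 3 fell from DE to PP2. Of all genes, 24.3%, 18.4% and 33.5% passed, so the share of this list at the first step was near the background. Their medians were 0.71, -0.25 and 0.35, beside 0.0057, 0.0049 and 0.049 for all genes. Of the 12 tested in Ribo, 1 rose from DE to PP1, 1 fell from PP1 to PP2, and 2 rose and 2 fell from DE to PP2, with medians of 0.40, 0.24 and 0.94 beside -0.039, 0.043 and 0.027, where 7.54%, 5.01% and 27.6% of all genes passed. In translation efficiency the only call was RBP2, an intestinal retinol carrier, which was lower at PP2 than at DE (-3.42 ± 0.91, adjusted p = 0.0412).

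ALDH1A1, a retinaldehyde dehydrogenase that makes retinoic acid, was 0.178 and 0.0663 CPM of RNA at DE, 47.1 and 67.8 at PP1, and 24.2, 20.8 and 36.5 at PP2. It rose at PP1 (8.77 ± 0.53, adjusted p = 2.62e-05) and fell at PP2 (-1.08 ± 0.28, adjusted p = 0.0327). Its relative ALDH1A2, the main embryonic form, had the same course at a lower level, with mean RNA of 0.447, 6.56 and 2.03 CPM (3.88 ± 0.45, then -1.69 ± 0.33, adjusted p = 0.000552 and 0.011). ALDH1A3, the third dehydrogenase, fell at both steps from 37.95 through 4.31 to 0.239 CPM (-3.14 ± 0.42 and -4.09 ± 0.48, adjusted p = 0.00109 and 0.0013). In RNA from DE to PP1, then, ALDH1A3 and CYP26A1 fell while ALDH1A1, ALDH1A2 and CYP26B1 rose. In Ribo ALDH1A1 rose too (6.66 ± 0.77, adjusted p = 0.000516), but ALDH1A2 (0.38 ± 1.35, adjusted p = 0.903) and ALDH1A3 (-2.24 ± 0.85, adjusted p = 0.145) did not pass. LRAT, which esterifies retinol for storage, fell in RNA from PP1 to PP2 (-1.96 ± 0.23, adjusted p = 0.00121). Its Ribo change there did not pass (-0.56 ± 0.42, adjusted p = 0.466). RBP4, the plasma retinol carrier that liver secretes, had no RNA count at DE and was at least 24.2-fold higher at PP1. It had 3 and 13 footprint counts at DE, and its Ribo change to PP1 did not pass (0.93 ± 1.05, adjusted p = 0.653). BCO1, which splits carotene, had 1 RNA count at DE and was 18.5 times higher at PP2, with a counting interval of 3.10 to 750.

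Of the 5 RXR and FABP5-PPARD genes, which pair with RARs or carry retinoic acid to another receptor, 0 rose and 1 fell in RNA from DE to PP1, none passed from PP1 to PP2 in edgeR, and 1 rose and 1 fell from DE to PP2. RNA medians were 0.29, -0.73 and -0.41, beside 0.0057, 0.0049 and 0.049 for all genes. In Ribo 0, 0 and 0 rose and 1, 0 and 1 fell. The Ribo medians were -0.18, -0.27 and -0.30, beside -0.039, 0.043 and 0.027 for all genes. Of all genes, 24.3%, 18.4% and 33.5% passed in RNA and 7.54%, 5.01% and 27.6% in Ribo. The gene that fell was RXRG, at 20.0 and 16.85 CPM of RNA at DE, 0.479 and 0.156 at PP1, and 0.104, 0.153 and 0 at PP2 (-5.90 ± 0.58 at PP1, adjusted p = 0.000216). At an unadjusted p under 0.05, 1 gene of the list in RNA and 0 in Ribo differed between PP2 and PP1, with no share of all genes to compare. RXRB was the gene that rose in RNA from DE to PP2 (0.53 ± 0.17, adjusted p = 0.0423).

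A list of 15 coregulators, which RARs bind with or without ligand, was read in the same way. Of 14 tested in RNA, 1 rose from DE to PP1 (TBL1X, a corepressor subunit, 0.92 ± 0.24), 0 passed from PP1 to PP2 by edgeR (3 at an unadjusted p under 0.05), and 1 rose and 2 fell from DE to PP2, where 24.3%, 18.4% and 33.5% of all genes passed. Medians were 0.11, -0.39 and -0.30 in RNA, beside 0.0057, 0.0049 and 0.049 for all genes. In Ribo they were 0.29, 0.37 and 0.43, beside -0.039, 0.043 and 0.027. The rise to PP2 was NRIP1, a ligand-dependent corepressor (1.51 ± 0.32, adjusted p = 0.0079), and the falls were the coactivator subunits MED1 (-0.66 ± 0.17) and NCOA2 (-0.65 ± 0.18). The Ribo calls were all between PP2 and DE, with 3 rises where 27.6% of all genes passed: NRIP1 (1.81 ± 0.36), TRIM24 (1.62 ± 0.37) and CREBBP (1.49 ± 0.39). At an unadjusted p under 0.05, Ribo had 2 genes of the list from DE to PP1 and 0 from PP1 to PP2. For the unadjusted counts of this list in both assays, no share of all genes is given to compare.

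Genes known to respond to retinoic acid were read from a list of 22, of which 18 were tested in RNA. From DE to PP1, 10 rose and 2 fell, with a median of 2.16 beside 0.0057 for all genes, where 12.3% of all genes rose and 12% fell. From PP1 to PP2, 2 rose and 7 fell (median -0.70), against 7.79% and 10.6% of all genes. From DE to PP2, 7 rose and 3 fell, against 16.4% and 17.1% of all genes. The median was 1.39, or 0.65 when genes without counts at DE were set to their lower bound, beside 0.049 for all genes. Of 15 tested in Ribo, 5 rose and 1 fell, 2 rose and 3 fell, and 7 rose and 2 fell in the same order. Of all genes tested in Ribo, 4.53%, 2.16% and 13.1% rose and 3.01%, 2.85% and 14.5% fell. Ribo medians were 1.87, -0.39 and 0.94, beside -0.039, 0.043 and 0.027 for all genes. The list was drawn up with results of these data known, so its counts describe these genes and are no independent evidence of a response.

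HOXA3 and HOXA2, homeobox genes of the hindbrain and gut, had no RNA count at DE. They were at least 273-fold and 88.6-fold higher in RNA at PP1, taking 3 counts over the DE group as the floor, and did not pass from PP1 to PP2 (-0.22 ± 0.73 and -0.17 ± 0.38). HOXA3 RNA was 23.1 and 27.5 CPM at PP1 and 32.3, 29.5 and 3.68 at PP2, so PP2 replicates 1 and 2 lay above PP1 and replicate 3 below it.

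NR2F1, an orphan nuclear receptor, had 1 RNA count at DE and was 281 times higher at PP1 (counting interval 50.1 to 11100), then rose further to PP2 (2.35 ± 0.27, adjusted p = 0.00122). NR2F2, its paralogue, rose from 3.97 and 2.65 CPM to 81.3 and 60.1 (4.41 ± 0.49, adjusted p = 0.000423). MEIS2, a HOX cofactor, rose from 6.16 and 6.37 CPM to 108.5 and 111.4 (4.13 ± 0.22, adjusted p = 1.82e-05), and its translation efficiency fell by 2.21 ± 0.38 (adjusted p = 0.0234). PLAAT4, a retinoid-induced phospholipase, was at least 10.7-fold higher at PP1 and fell again at PP2 (-3.26 ± 0.62, adjusted p = 0.0123). RET, a receptor tyrosine kinase, fell at PP1 in RNA (-4.65 ± 0.62, adjusted p = 0.00105). Its footprints did not pass (1.31 ± 1.22, adjusted p = 0.581) and differed widely at PP1, with 13.4 and 0.289 CPM beside 2.29 and 3.25 at DE.

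**Figure D4:**
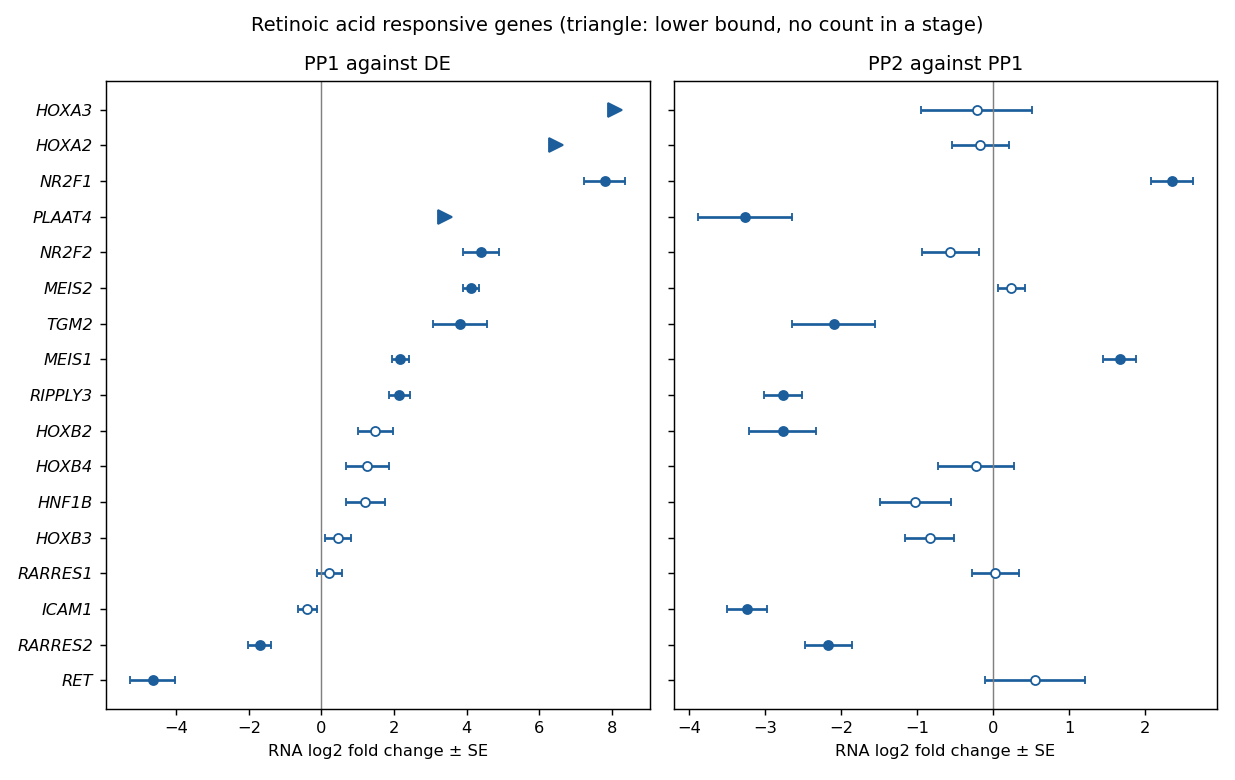
RNA log2 fold changes of 17 tested retinoic acid responsive genes, from DE to PP1 and from PP1 to PP2; triangles are lower bounds for genes with no count at DE. Of the genes plotted, 9 rose and 2 fell at the first step, and 2 rose and 6 fell at the second.

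The genes whose pattern over all 14 libraries lay nearest to each member were taken from 10844 candidates, by Euclidean distance of log2(CPM + 1) centred within each assay. For CYP26A1 FST was near (distance 5.24), for CYP26B1 the nearest were IHH (2.14) and APOA2 (2.43), and for DHRS3 SERPINF2 (1.39) and RNF128 (1.68). RARA was nearest to RTL8A (1.05) and PPL (1.07), RARB to IKZF2 (1.02) and METTL25 (1.05), and RARG to NRBP2 (1.55) and MUC19 (1.57). CRABP1 was nearest to SOX18 (1.62) and MANEA (1.65), and CRABP2 to PODXL (1.33) and PREX1 (1.44). FST, at a wider distance than any other gene named here, had 359 CPM of RNA at DE, 34.6 at PP1 and 2.9 at PP2.

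A DR5 was found in the promoter windows of 29 genes, 0.106% of the 27305 with a window. Of these, 18 were in the count table and 12 were tested in RNA, CYP26A1 and RARB included. Among the 12, 2 rose and 2 fell from DE to PP1, 2 rose and 3 fell from PP1 to PP2, and 3 rose and 5 fell from DE to PP2. The shares of all genes that passed were 24.3%, 18.4% and 33.5%. RARB was among the genes that rose and CYP26A1 among those that fell in all 3 comparisons.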

How the data were processed

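For 7 RNA and 7 Ribo libraries the authors deposited unnormalised counts, with a row for each gene symbol and its length. Per the submitters' processing notes the tools were cutadapt 1.18, Bowtie 1.2, STAR 2.7.1a and featureCounts 1.6.4, on hg38. The strand setting and the feature counted in Ribo are not given in the sources used here. The 9 members and all gene lists were chosen with earlier results of these data known.

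RNA and Ribo counts were fitted separately over all stages with edgeR 4.0.16 in R 4.3.3 (filterByExpr with a minimum count of 10, TMM scaling, quasi-likelihood F test, Benjamini-Hochberg adjustment over all genes, threshold 0.05), and the script was tested on simulated data. SE is the absolute log2 fold change divided by the root of F. Translation efficiency was the interaction of assay and stage. CPM used effective library sizes, and RPKM divided CPM by the same gene length in both assays. The pipeline of the Ribo reads was the authors', so reads left on MT-RNR2 entered the totals.

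From the lists (retinoid uptake, storage and synthesis; RXR partners and FABP5-PPARD delivery; RAR coregulators; retinoic acid responsive genes), genes that passed in RNA or Ribo could be named, largest change first, up to 8 a list. Marker lists were definitive endoderm, pancreatic progenitor, hepatic, intestinal, mesenchyme, neural and pluripotency. Likeness used a pseudocount of 1 and genes of at least 10 CPM in a stage. Alternatives were DESeq2 1.42.0 size factors, protein-coding genes, no filter, the DESeq2 Wald test, limma 3.58.1 voom with quality weights, only the stages compared, leaving out each library, and a replicate block. Leaving out both Ribo PP2 libraries low in MT-RNR2, and counting members under each setting, were added after seeing the data. Values of some listed or near genes are not reported here, though list counts include them.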

Additional observations from a re-analysis of the deposited data

How the results depend on the processing

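Of 1265 recomputed values for 75 member results, 1165 kept their direction and side of the threshold, 47 no longer passed, 31 newly passed and 22 changed sign; none that changed sign had passed. Of 37 passing member results, 21 passed under every setting. Fits without a DE or PP1 library left 1 library in that group, so a call lost there cannot be told from a loss of power. The cause of the differences was not tested. Counts of genes passing varied more. With limma voom they were 10951, 9603 and 12996 in RNA (5979, 4532 and 8240 in the reported fit, for PP1 against DE, PP2 against PP1 and PP2 against DE), 3048, 4175 and 6901 in Ribo (1136, 755 and 4152) and 421, 1854 and 4138 in translation efficiency (38, 11 and 805). Without the filter they were 1772 in Ribo PP2 against PP1 and 103, 76 and 2135 in translation efficiency. By DESeq2 they were 1597 in Ribo PP2 against PP1 and 221, 243 and 2069 in translation efficiency. With only the stages compared they were 11211 in RNA and 3150 in Ribo for PP1 against DE, and 756, 0 and 205 in translation efficiency. Without both Ribo PP2 libraries low in MT-RNR2 they were 3005 (Ribo PP1 against DE), 2410 (Ribo PP2 against DE) and 186, 0 and 191 in translation efficiency. Leaving out 1 library gave 2935 to 11999, 1210 to 9984 and 4219 to 12649 in RNA, 424 to 2228, 58 to 3473 and 1787 to 6837 in Ribo, and 6 to 132, 0 to 1110 and 52 to 3704 in translation efficiency.

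The replicate numbers were not taken to pair the samples, because no label says that they do. Same-numbered libraries of 2 stages had correlations of deviations from -0.294 to 0.234. RNA and Ribo libraries of the same stage and number had correlations from -0.147 to 0.0974. In a group of 2 libraries the deviations mirror each other, so these values cannot decide whether samples were paired. In translation efficiency, where each block was the RNA and Ribo library of the same stage and number, 21, 2 and 301 genes passed. With the replicate number as a block, 11713, 9758 and 12475 genes passed in RNA and 745, 201 and 1682 in Ribo. Replicate 3 exists only at PP2, so its block held that library alone and in effect left it out. With no block and without RNA PP2 replicate 3, 11999, 9984 and 12649 genes passed in RNA. The block therefore cannot separate pairing from the loss of that library. Among members the block gave RNA calls for RARA at PP1 against DE (0.84, adjusted p = 2.48e-06) and PP2 against PP1 (-0.86, adjusted p = 2.33e-06). It also gave one for RARG at PP1 against DE (-0.62, adjusted p = 0.0118). Leaving out RNA PP2 replicate 3 gave the same calls, at 0.85 and -0.86 for RARA and -0.63 for RARG. The block ended Ribo calls for CYP26A1 (adjusted p = 0.0655) and RARA (0.0832) at PP1 against DE and RARA at PP2 against DE (0.15).

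Members passing ranged, leaving out 1 library, from 3 to 8 in RNA PP2 against PP1, 3 to 6, 1 to 4 and 4 to 8 in Ribo, and 0 to 1 and 0 to 2 in translation efficiency of PP2 against PP1 and against DE. In Ribo PP2 against PP1, 4 passed without the filter and 4 with limma voom. In translation efficiency 1 passed with only the stages compared (PP1 against DE), 1 with limma voom (PP2 against PP1), and 2 without the filter, 1 by DESeq2 and 1 by limma voom (PP2 against DE). Signs changed for Ribo DHRS3 at PP2 against PP1 without the filter (0.13) and without Ribo PP1 replicate 1 (0.0019), and otherwise in translation efficiency. At PP1 against DE these were DHRS3 without RNA DE replicate 2 (-0.11) or Ribo DE replicate 1 (-0.077), RARB without Ribo DE replicate 1 (0.49), and RARG without RNA DE replicate 2 (-0.13) or Ribo PP1 replicate 2 (-0.27). At PP2 against PP1 they were CYP26A1 by limma voom (0.038), RARG without Ribo PP1 replicate 2 (0.26), Ribo PP2 replicate 1 (0.31) or 3 (0.25) or both (1.24), and CRABP2 without both (-0.074). At PP2 against DE they were RARB without Ribo DE replicate 1 (0.17), CRABP1 without both Ribo PP2 libraries (-0.31), and RARG without the filter (0.12), RNA DE replicate 1 (0.091), RNA PP2 replicate 2 (0.070), Ribo DE replicate 2 (0.039), Ribo PP2 replicate 1 (0.40) or 3 (0.37) or both (1.40). Over all libraries left out singly, the lowest and highest values were -0.74 and 0.49 for RARB and -0.27 and 0.50 for RARG (PP1 against DE), -1.94 and 0.31 for RARG (PP2 against PP1), and -1.05 and 0.17 for RARB and -1.85 and 0.40 for RARG (PP2 against DE); the -1.94 passed (adjusted p = 0.0282). CYP26C1 footprints and CRABP1 RNA at PP1 rest on few counts, so counting error is large there.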
